A study of Mus musculus with 6 samples.

Results

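The small (40S) subunit of the ribosome binds the mRNA and reads its codons, and the genes described here encode 28 of its proteins. They were taken by gene symbol from a table of 17348 genes, and other small-subunit proteins are not analysed here. All 28 were among the 13570 genes that passed the filter on low counts. The table comes from cerebral cortex of C57BL/6J mouse embryos at E18.5, and compares 3 control cortices (labelled WT) with 3 Ybx1 cKO cortices. The controls were littermates, given by the study as wild type for the RNA sequencing and as Ybx1 fl/fl elsewhere. The cKO embryos carried Nestin-Cre and 2 floxed Ybx1 alleles (Ybx1 fl/fl), so that exons 3 to 8 of Ybx1 were removed in cells of the nervous system in which the Nestin promoter drives Cre, and cells of other origin in the cortex keep the gene. Ybx1 encodes a protein that binds RNA, including RNA that carries 5-methylcytosine. Total RNA was sequenced after an mRNA library preparation, and the question addressed here is how far each small-subunit mRNA differed between cKO and control cortex, and which differed from the rest of the subunit.

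A small subunit has a head and a body, between which the mRNA and the anticodon end of the tRNA lie. Its proteins are made in nearly equal numbers, assembled on ribosomal RNA in the nucleolus and exported. Most mRNAs of ribosomal proteins begin with a terminal oligopyrimidine (TOP) tract, a C at the cap followed by more C or T bases, through which mTOR signalling and the RNA-binding protein Larp1 control their translation. Here 12 members belong to the head and 16 to the body, and 13 have relatives in all domains of life whereas 15 are found in eukaryotes and archaea or in eukaryotes alone.

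The first transcribed bases are shown because they are where a TOP tract would lie. RefSeq promoter sequences of GRCm38.p6 were held for 24 of the 28 members. A C at the annotated start that was followed by an unbroken run of C or T, at least 5 bases long in all, was found in 7 of these 24 (29.2%), against 3% of 13719 genes of the table with such an entry. In the windows below, the first 5 bases precede the annotated start, 25 follow from it, and capitals mark the longest run of C and T that begins with a C within 5 bases of the start. These are the 7 members with a run at the start.
Rps6, chr4:86857343-86857372, minus strand: cgggCCTCTTTTTCgtgacgcctcccaggc
Rps10, chr17:27635220-27635249, minus strand: cgCCCCTTCCTTTCCagcctccgcctcgga
Rps15a, chr7:118116123-118116152, minus strand: gccatCTTCCCTCgccggtgagtgagtgtt
Rps18, chr17:33955641-33955670, minus strand: ccgCTCTCTCTTCCacaggaggcctacacg
Rps21, chr2:180257374-180257403, plus strand: ccgCCCTCCTgcccaatagtgctgcggagg
Rps27, chr3:90213624-90213653, minus strand: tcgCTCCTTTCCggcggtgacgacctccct
Fau, chr19:6057942-6057971, plus strand: caCTTCTTCCTCTTTCTTgactccatcttc

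For comparison, windows of 4 members with large differences and no run at the annotated start are given (that of Rps2 begins 4 bases after it). Members with small differences could lack one too, as Rps13 did. In Rps24 a run begins just before an annotated start and crosses it, but the base at the start is a T. Fau, with the longest run, is in the upper part of the range of differences.
Rpsa, chr9:120127761-120127790, plus strand: taaggacgtcatttccggccgcccgtcctt
Rps2, chr17:24720058-24720087, plus strand: gatctcgcgCTTCTTggagcactataaatt
Rps15, chr10:80292426-80292455, plus strand: ctcgcgataactgcgcaagcgcagcccgta
Rps12, chr10:23787185-23787214, minus strand: cggccaccgccggccttttcccctgccgcc
Annotated starts are uncertain: in a second annotation, GENCODE, the gene model of Rpsa begins at position 120127689 of chromosome 9, upstream of the RefSeq window. A run was looked for only within 5 bases of the start, and the window of Rps12 holds one that begins further downstream. A missing run therefore says only that none begins that close to this start. Counted within 5 bases of the start, a run was present in 12 of 24 members (50%) and in 23.3% of the table's genes.

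Every small-subunit mRNA had a lower fitted level in cKO than in control cortex. The median log2 fold change was -0.56, against 0.00 over all genes tested, and it ranged from -1.36 for Rpsa to -0.24 for Rps27. A log2 fold change below 0 was found for 49.4% of all genes. Rpsa, which encodes the protein also known as the laminin receptor precursor, was the 1 member that passed an adjusted p of 0.05 in edgeR's quasi-likelihood test, where 0.0516% of all genes were called lower and 0.0737% in either direction. DESeq2, a second count test, called 7 members lower (Rpsa, Rps2, Rps3a1, Rps4x, Rps12, Rps15 and Rps19), against 0.578% of all genes. At an unadjusted p of 0.05, 22 of the 28 were lower, against 3.49% of all genes. In 22 of the 28, every cKO library lay below every control library in CPM (the library's counts scaled to a common total with TMM factors), against 6.93% of all genes. In a bulk sample, fewer cells of a type and less RNA per cell cannot be told apart.

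**Figure D1:**
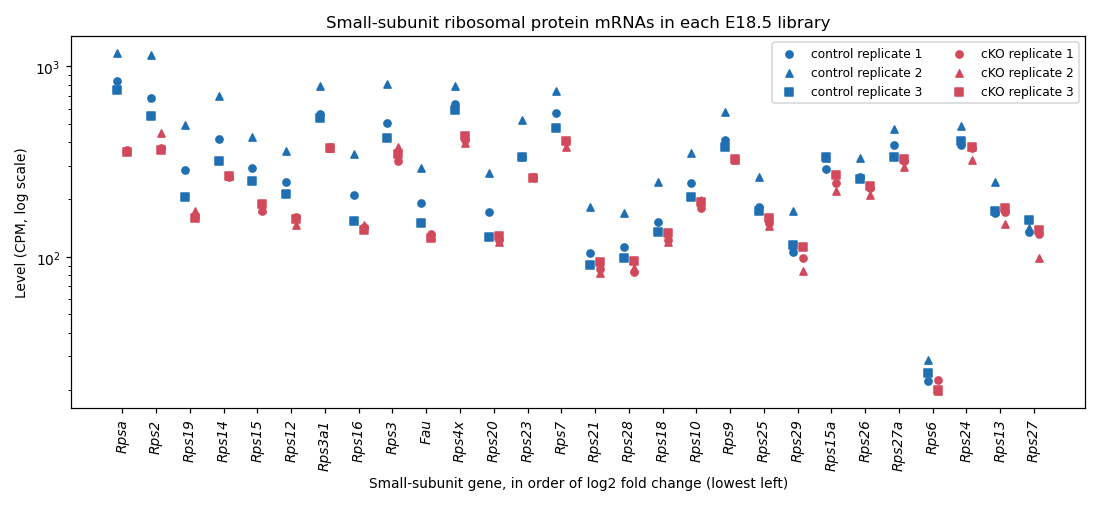
Level of each of the 28 small-subunit genes in each library (CPM, log scale), ordered by log2 fold change, with controls in blue and cKO in red and 1 marker shape per replicate number. Control replicate 2 is the highest of the 6 libraries for 26 genes, and the 3 cKO libraries lie close together, as for Rpsa at 353 to 362 CPM.

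The spread within the groups was unequal. Control replicate 2 gave the highest of the 6 values for 26 of the 28 members, the exceptions being Rps15a and Rps27, and for 33.6% of all genes. The coefficient of variation was larger among controls than among cKO libraries for the same 26 members, and for 77.1% of all genes. Among controls it ran from 7.52% for Rps27 to 44.9% for Rps19, and among cKO libraries from 0.688% for Rps9 to 17.2% for Rps27. Without control replicate 2 all 28 log2 fold changes stayed below 0, the median was -0.31, and 6 members were called lower (Rpsa, Rps2, Rps3a1, Rps4x, Rps12 and Rps15), against 0.701% of all genes in that fit.

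Control replicate 2 also stood apart by transcript length. For genes outside both ribosomal subunits, its median deviation from the mean of the 6 libraries was 0.20 on the log2 scale for transcripts under 500 nt (257 genes) and -0.27 for those over 4000 nt (1112 genes). The other 5 libraries stayed between -0.08 and 0.09 in every length class. Small-subunit mRNAs are short, with annotated median lengths from 387 nt (Rps28) to 1054 nt (Rps13), most of them between 500 and 1000 nt. In that length class the median deviation of control replicate 2 was 0.13 (4169 genes). With a correction for length and GC content in the fit, the median log2 fold change of the members was -0.51, and Rpsa and Rps15 were called lower. That fit called 30 genes of the table in either direction, and the share of all genes called lower in it was not computed.

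**Figure D2:**
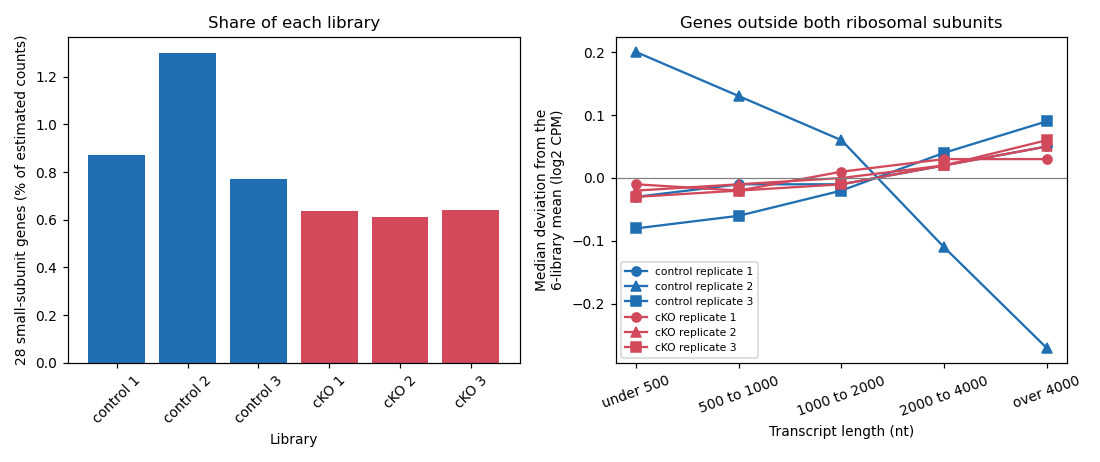
Left, percent of each library's estimated counts that fell on the 28 small-subunit genes, one bar per library. Right, median deviation of genes outside both ribosomal subunits from the 6-library mean (log2 CPM) in 5 classes of transcript length; control replicate 2 runs from 0.20 to -0.27 while the other libraries stay near 0.

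Depth was even, at 15091951 to 16885451 estimated counts per library. Ybx1 itself had 16184, 22152 and 13950 counts in the controls and 387, 394 and 390 in the cKO libraries (log2 fold change -5.47). The controls carried Y-linked transcripts (Eif2s3y, Kdm5d, Ddx3y and Uty, 215 to 295 CPM summed), which summed to 0.929 to 1.47 CPM in the cKO libraries, so genotype and sex cannot be told apart. All 8 listed markers of cortical excitatory neurons were expressed, with a sum of 2570 to 3111 CPM in controls and 2504 to 2793 in cKO. Markers of erythroid cells summed to 983 to 1349 CPM in controls and 998 to 1216 in cKO.

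The 28 genes together took 0.87%, 1.3% and 0.77% of the counts in the 3 controls and 0.638%, 0.612% and 0.642% in the 3 cKO libraries. The groups did not overlap, at 0.979% ± 0.281 against 0.631% ± 0.016 (SD, n = 3 each; exact two-sided permutation of the libraries, p = 0.1, which 3 against 3 cannot go below). In TPM, which divide each count by the transcript's length before scaling, the share was 5.64% ± 0.676 in controls and 4.33% ± 0.134 in cKO (SD, n = 3 each; exact permutation test, p = 0.1).

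Rpsa showed the largest difference. It lies at chr9:120127689-120132369 on the plus strand (GRCm38, Ensembl ENSMUSG00000032518), and its protein sits at the back of the subunit, where head and body meet. Its level was 833, 1172 and 752 CPM in the controls and 362, 360 and 353 CPM in the cKO libraries. Every control thus lay well above every cKO library, and the 3 cKO values were nearly equal. The log2 fold change was -1.36 (SE 0.167, edgeR adjusted p = 0.0269), or 39.0% of the control level. Without control replicate 2 it was -1.14 (adjusted p = 5e-05). Without control replicate 1, or without any 1 of the cKO libraries, the log2 fold change lay between -1.42 and -1.35 but the adjusted p was 0.14 to 0.386.

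Rps2 encodes a protein at the tunnel through which mRNA enters the subunit. Its level was 679, 1140 and 551 CPM in controls and 371, 447 and 365 CPM in cKO. The groups did not overlap, and the log2 fold change of -1.0 (SE 0.244, edgeR adjusted p = 0.384) was -0.64 without control replicate 2 (adjusted p = 0.0334). Rps19, a head protein whose gene is mutated in Diamond-Blackfan anaemia, was at 287, 493 and 207 CPM in controls and at 161, 175 and 160 CPM in cKO. Control replicate 2 stood far above the other controls, and its log2 fold change of -1.0 (SE 0.269, edgeR adjusted p = 0.465) did not pass the threshold. It was -0.58 without that library.

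Among the other head proteins, Rps15 and Rps12 followed, with log2 fold changes of -0.83 and -0.82. Rps15 reaches towards the decoding site, and its mRNA was at 322 ± 92.6 CPM in controls and 181 ± 7.51 CPM in cKO (SD, n = 3 each). Rps12, on the beak of the head, was at 274 ± 76.2 and 156 ± 7.32 CPM. Rps16, which contacts the initiator tRNA, and Rps3, at the mRNA entry site and also studied in DNA repair, had log2 fold changes of -0.74 and -0.73, which were -0.37 and -0.40 without control replicate 2. The smaller differences of the head were those of Rps20 (-0.63), Rps28 (-0.51), Rps18 (-0.50), Rps10 (-0.49), Rps25 (-0.44), Rps29 (-0.41) and Rps27a (-0.34). Without control replicate 2 these 7 lay between -0.27 and -0.16. Of these, Rps25 is known for its role in initiation at internal ribosome entry sites, and Rps20 and Rps29 were the head members whose groups overlapped in CPM. Over the 12 head genes the median was -0.57. At an unadjusted p under 0.05, 11 were lower, against 3.49% of all genes. In CPM, 10 were lower without overlap between groups, against 6.93% of all genes.

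Over the 16 body genes the median was -0.56, against the median of -0.57 in the head. At an unadjusted p under 0.05, 11 were lower, against 3.49% of all genes. In CPM, 12 were lower without overlap, against 6.93% of all genes. Behind Rpsa and Rps2, Rps14, which lies close to the mRNA exit, had 476 ± 196 CPM in controls and 264 ± 2.97 in cKO (SD, n = 3 each; log2 fold change -0.85, or -0.47 without control replicate 2). Rps3a1, which contacts initiation factor eIF3, had 626 ± 136 and 374 ± 3.77 CPM (log2 fold change -0.74). Rps23, a protein of the decoding centre, had 399 ± 109 and 262 ± 2.21 CPM (log2 fold change -0.61, or -0.36 without control replicate 2). Rps7 (-0.59), Rps21 (-0.52), Rps9 (-0.47), Rps15a (-0.37) and Rps26 (-0.34) came next, the groups overlapping for Rps21. Without control replicate 2, Rps21 was at -0.16, Rps9 at -0.27 and Rps26 at -0.21. By conservation, the 13 universal members had a median of -0.63 and the 15 others one of -0.51.

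**Figure D3:**
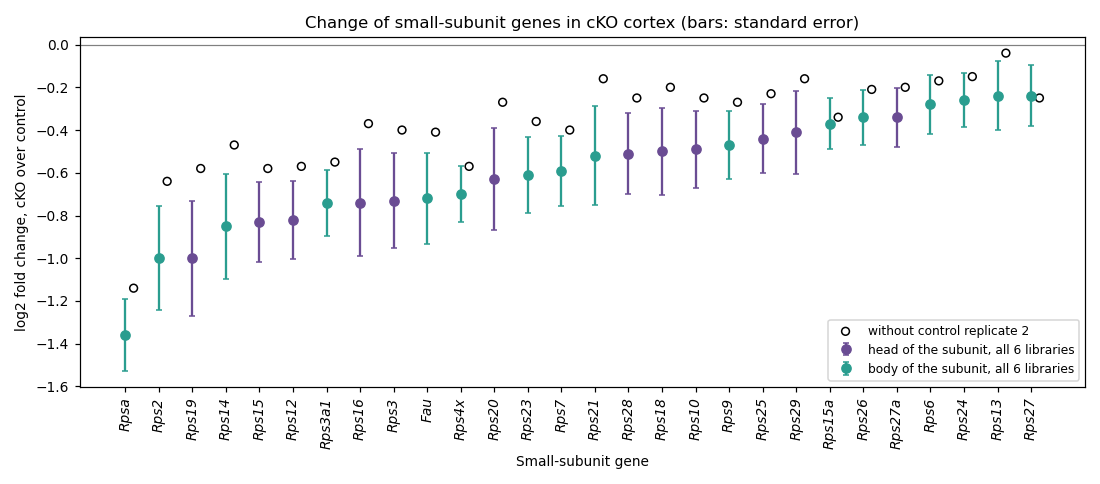
Log2 fold change of each small-subunit gene, cKO over control, with its standard error (filled points; purple head, green body; 3 libraries per group), and the same without control replicate 2 (open circles). All values are below 0, from -1.36 to -0.24, and only Rps27 is not closer to 0 without that library.

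At the other end stood Rps24, Rps13 and Rps27. Rps24 was at 386, 486 and 406 CPM in controls and 371, 323 and 377 CPM in cKO, with a log2 fold change of -0.26 (SE 0.127), or -0.15 without control replicate 2, and groups that did not overlap. Rps13 was at 170, 246 and 173 CPM in controls and 171, 148 and 180 CPM in cKO, with a log2 fold change of -0.24 (SE 0.162). It was -0.04 without control replicate 2, which alone lay above all cKO libraries. Rps27, a zinc-finger protein, was at 135, 142 and 156 CPM in controls and 131, 98.4 and 138 CPM in cKO, with a log2 fold change of -0.24 (SE 0.142). For Rps13 and Rps27 cKO replicate 3 exceeded at least 1 control library.

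A pair of members are made as fusion proteins and then cleaved. Rps27a is translated behind ubiquitin, and its mRNA was at 387, 471 and 335 CPM in controls and 317, 297 and 325 CPM in cKO (log2 fold change -0.34, SE 0.138, edgeR adjusted p = 0.687). Fau joins a ubiquitin-like domain to a small-subunit protein, and its mRNA was at 191, 292 and 151 CPM in controls and 131, 129 and 126 CPM in cKO (log2 fold change -0.72, SE 0.212, edgeR adjusted p = 0.49). Without control replicate 2 the log2 fold changes were -0.20 for Rps27a and -0.41 for Fau. Neither gene's groups overlapped.

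Rps4x, the 1 X-linked member (chrX:102184941-102189394, minus strand), was at 630, 783 and 591 CPM in controls and 409, 394 and 431 CPM in cKO. Its log2 fold change was -0.70 (SE 0.131, edgeR adjusted p = 0.21) and the groups did not overlap. The Y-linked transcripts given above mark the same split of the libraries, and their part in the level of Rps4x was not tested. The 27 autosomal members were distributed over 13 chromosomes, with 6 on chromosome 7 and 4 on chromosome 17.

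Rps6, the protein phosphorylated by the S6 kinases, had by far the lowest count of the subunit. It was at 22.4, 28.8 and 24.5 CPM in controls and 22.7, 19.8 and 20.1 CPM in cKO, and the groups overlapped (log2 fold change -0.28, SE 0.137, and -0.17 without control replicate 2). Its estimated counts were fractional in all 6 libraries, as RSEM gives where reads are divided between rows. A row of the same family is Rps6-ps4, a processed pseudogene at chr2:75191073-75191822 on the minus strand, which was looked at after the values were seen. Rps6 held 4.46% to 6.70% of the counts of the pair. Summed, the pair was at 514 ± 115 CPM in controls and 339 ± 3.92 CPM in cKO (SD, n = 3 each), with a log2 fold change of -0.60 (SE 0.156, edgeR adjusted p = 0.433) and groups that did not overlap. Hence the level of Rps6 alone is uncertain, and the sum lies in the middle of the subunit's range.

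Rps23 had fractional counts in all 6 libraries too, Rps25 in 3, Rps27 in 2 and Rps16 in 1. The counts of the other 23 members were whole in every library, to within 0.005. Several members have pseudogenes named after them in GENCODE, 24 for Rps12, 14 for Rps19, 11 for Rps2 and 9 for Rpsa. None of these has a row under such a name in the table. Pseudogenes under other symbols were not searched for, although the study reports pseudogenes of Rpsa among the transcripts lower in its E18.5 cKO cortex.

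Per unit of length the order of the genes was different. In TPM the highest control levels were those of Rps27 (4470 ± 888), Rps26 (3896 ± 35.7), Rps14 (3321 ± 931) and Rps23 (3269 ± 444) (SD, n = 3 each). Rps14 and Rps23 do not differ beyond their spread, nor do Rps27 and Rps26. Control levels of 23 of the 28 members were above 1000 TPM. The 5 below that level were Rps24 (833 ± 71.3), Rps3 (762 ± 195), Rps15a (140 ± 14.5), Rps20 (127 ± 38.6) and Rps6 (48.9 ± 3.37). Rps15a and Rps20 do not differ beyond their spread, and Rps6 lies below both.

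The effective length by which each level was divided can be read from the ratio of count to FPKM. It is not the same measure as the full annotated length of a transcript. It was 4828 nt for Rps15a, whose annotated transcripts have a median of 637 nt, and 3138 nt for Rps20 (582 nt annotated). For Rps27 it was 66 nt (458 nt annotated). Because TPM divide by this length, the levels of Rps15a, Rps20 and Rps27 against other members are uncertain; why the implied lengths depart from the annotated ones was not tested. Between libraries the implied length moved by at most 21 nt in the median over members (control replicate 2 against control replicate 1), which weighs most for the shortest genes. For Rps24 it varied from 1029 to 1117 nt, the lowest values being those of control replicate 3 and cKO replicate 3.

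**Figure D4:**
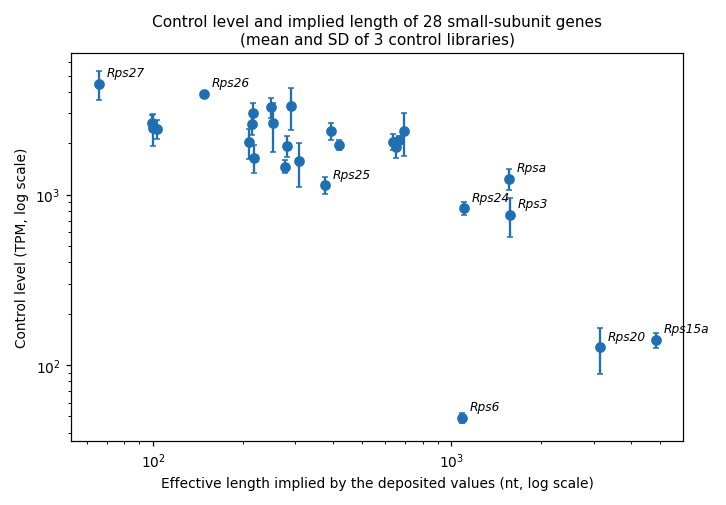
Control level (TPM, mean and SD of 3 libraries, log scale) of the 28 small-subunit genes against the effective length implied by the deposited values (nt, log scale). Rps15a and Rps20 stand at the right with 4828 and 3138 nt and 140 and 127 TPM, and Rps6 is lowest with 48.9 TPM.

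In TPM, 20 of the 28 members did not overlap between groups and were lower in cKO, against 2.43% of all genes. Rps15a and Rps24 overlapped here in addition to the 6 that overlapped in CPM. The log2 fold change on the log2(TPM + 1) scale was -1.18 for Rpsa, -0.78 for Rps2 and -0.73 for Rps19, and -0.02 for Rps27. The median over the members on this scale was -0.34 where that of all genes was 0.14, so values on it are shifted upwards by about that amount.

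To see which members moved apart from the subunit, each level was set against the median of the other members in the same library, which removes the library's scaling. Rpsa stood 1.67, 1.75 and 1.81 above the rest in controls on the log2 scale and 1.05, 1.02 and 0.90 above it in cKO, a difference of -0.76 (exact permutation test, two-sided, p = 0.1, the lowest possible). Control replicate 2 lay between the other controls in this measure of Rpsa. Rps2 (-0.36) and Rps15 (-0.29) were also relatively lower in cKO without overlap, against 0.133% of all genes. All genes were measured against the median of all the members, with a small constant added to their CPM. With the opposite sign, Rps13 (0.42), Rps6 (0.37), Rps10 (0.25), Rps27a (0.25) and Rps25 (0.22) did not overlap and were relatively higher in cKO, as were 79.8% of all genes. The share of 79.8% is high, and that of 0.133% low, because the median of the members was itself lower in cKO. Neither share is thus a measure of how unusual these members are. Each of these members had an exact permutation p of 0.1. The Rps6 row held 4.46% to 6.70% of the counts of its pair with Rps6-ps4, so its relative rise is uncertain. Its groups were barely apart, with control replicate 3 at -3.35 and cKO replicate 2 at -3.32. The summed pair had a log2 fold change of -0.60, near the members' median of -0.56. The groups of Rps2 and Rps25 were barely apart too. For Rps2, control replicate 3 was at 1.36 and cKO replicate 2 at 1.33. For Rps25, control replicate 2 was at -0.45 and cKO replicate 2 at -0.43. Rps7 stayed with the subunit, at 1.12 ± 0.024 above the others in controls and 1.12 ± 0.069 in cKO (SD, n = 3 each).

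**Figure D5:**
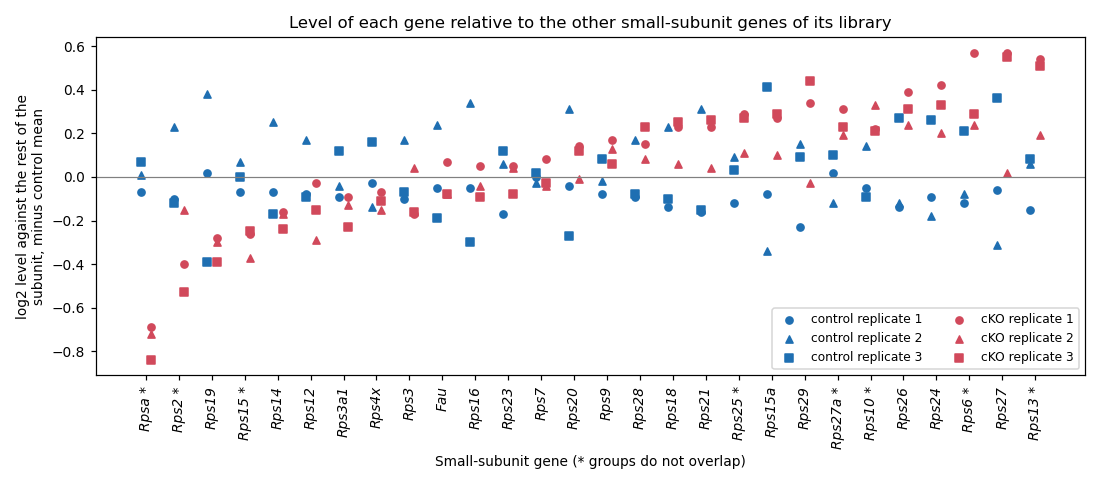
Log2 level of each gene against the median of the other small-subunit genes in the same library, minus the mean of the 3 controls; blue controls, red cKO, 1 marker shape per replicate number, and a star where the groups do not overlap. The cKO values of Rpsa lie 0.69 to 0.84 below the control mean, and those of Rps13 lie above it.

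The relative measure in TPM gave a difference of -0.74 for Rpsa, -0.34 for Rps2 and -0.16 for Rps15, with overlap for Rps2.

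Across the 28 members, the log2 fold change was described against other properties. Spearman's rho was -0.52 with the control level in CPM, -0.69 with the coefficient of variation among controls, -0.42 with the GC content of the transcripts and -0.13 with the implied length. These points share the same 6 libraries, and the control values enter both measures of the first 2 relations. The 7 members with a TOP-like run at the annotated start had a median log2 fold change of -0.49, and the 17 with an entry but no such run one of -0.70. Other letters were searched on both strands from 250 bases before to 50 after the start. CCGGAA, the core of ETS-factor sites, was in 13 of 24 members (54.2%) and in 25.6% of the table's genes. GCCATC, the core of YY1 sites, was in 6 members (25%) and 16.8% of genes, and TATAAA in 2 members (8.33%) and 10.5% of genes.

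The large (60S) subunit joins the small one once the start codon is found. Of its 47 listed genes, 47 had a log2 fold change below 0, with a median of -0.60. At an unadjusted p under 0.05, 43 were lower, against 3.49% of all genes. Only 1, Rplp0, was called lower (-1.32, edgeR adjusted p = 0.0228), against 0.0516% of all genes. The median small-subunit level minus the median large-subunit level, in log2 CPM, was -0.0647 ± 0.0673 in controls and -0.179 ± 0.0566 in cKO (SD, n = 3 each; exact permutation test, p = 0.2). The groups overlapped slightly, the lowest control at -0.13 and the highest cKO library at -0.122, and this test cannot reach 0.05 with 3 libraries per group.

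Rack1, a scaffold protein that sits on the head of the small subunit and is not counted among its core proteins, was at 514, 685 and 423 CPM in controls and 263, 264 and 257 CPM in cKO. The groups were far apart, and the log2 fold change was -1.05 (SE 0.169, edgeR adjusted p = 0.108). The genes that act on TOP mRNAs or phosphorylate Rps6 (Mtor, Rptor, Rps6kb1, Rps6kb2 and Larp1) had log2 fold changes between -0.09 and 0.12.

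Factors that build the small subunit or bind it were listed as well. The 20 assembly factors, such as the kinases Riok1 and Riok2, had a median of -0.07 and a range of -0.30 to 0.25, with 11 below 0. Of 20 initiation factors that bind the small subunit, 14 were below 0 with a median of -0.14. Those lower at an unadjusted p under 0.05 in edgeR's test were 4 subunits of eIF3, namely Eif3f (-0.93), Eif3h (-0.69), Eif3k (-0.55) and Eif3l (-0.33), and 1, Eif2s3x, was higher (0.56). Over all genes, 3.49% were lower and 3.14% higher at that p. Eif2s3x is X-linked and has the Y-linked copy Eif2s3y named above. None of these passed the adjusted threshold, the lowest adjusted p being that of Eif3f at 0.109. Of the other eIF3 subunits listed, Eif3i (-0.33), Eif3g (-0.26), Eif3d (-0.24), Eif3m (-0.19), Eif3b (-0.17), Eif3e (-0.10), Eif3c (-0.08) and Eif3a (-0.01) had lower fitted levels in cKO and Eif3j1 (0.18) a higher one.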

How the data were processed

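RNA was from 3 control and 3 Ybx1 cKO E18.5 cortices, grouped by genotype label. Nothing states that replicates are separate litters, so p-values measure the spread between these samples. The authors deposited 1 table with estimated counts, TPM and FPKM per library (27 columns, of which 18 were used; the columns of group averages were not). The submitters' processing notes name HISAT2 2.2.1, Bowtie2 2.4.5, RSEM 1.3.1 and GRCm38. The deposited FPKM values served only to derive effective lengths (count over FPKM, scaled by library), and the deposited TPM values to compare levels between genes.

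Estimated counts (89.4% whole to within 0.005) were rounded. The test was edgeR 4.0.16's quasi-likelihood F-test in R 4.3.3 with filterByExpr, TMM factors and no covariate, Benjamini-Hochberg adjusted over all 13570 genes, at a threshold of 0.05. CPM are TMM-scaled. Alternatives used DESeq2 1.42.0, limma 3.58.1 on log2(TPM + 1), other filters and scalings, a length and GC correction (mgcv 1.9.3), a replicate block and omission of each library. Exact permutation tests over libraries were two-sided. On simulated data with these means and 200 changed genes among 13570, the cKO against control test recovered 14.9% of 1.5-fold, 80.6% of 2-fold and 97.0% of 4-fold changes, with 5 false calls. Genes were simulated independently, each with the same dispersion in both groups. The larger spread of the controls and the shift of control replicate 2 were thus not simulated, and these shares need not hold for the members. Depth was 15091951 to 16885451 counts per library, and 3 counts correspond to 0.178 to 0.199 CPM. Members and other gene lists were chosen with earlier results of these data known. All 28 members are named, with values per library for the member called, the 3 largest and 3 smallest changes, both fusion genes and the X-linked gene; Rps6 and its pseudogene were added after their values were seen. Sequences and starts are from RefSeq on GRCm38.p6. Gene positions, annotated transcript lengths and pseudogene names are from GENCODE. Strand use in counting is not given in the sources used here.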

Additional observations from a re-analysis of the deposited data

How the results depend on the processing

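All member log2 fold changes stayed below 0 in each of the 17 alternatives, and of the member values 459 kept their side of the threshold, 12 passed it only in the alternative and 4, all of Rpsa, lost it. Rpsa was called in 13 of 17, with adjusted p of 8.82e-12 to 0.386. Genes called over the table numbered 10, and 94 in DESeq2, 6 without X and Y genes, 30 with the length and GC correction, 17 with that correction and the replicate block, and 8 to 122 with each library left out, 122 being without control replicate 2 and 19 without control replicate 3. Members called numbered 1, and 7 in DESeq2 (Rpsa, Rps2, Rps3a1, Rps4x, Rps12, Rps15 and Rps19), where 0.578% of all genes were called lower. They numbered 2 with the length and GC correction (Rpsa and Rps15), where that share was not computed, and 0 to 6 with each library left out. The count was 6 without control replicate 2, where 0.701% of all genes were called lower. It was 0 without control replicate 1 or any cKO library, with 15 to 24 members still lower at an unadjusted p of 0.05. With all libraries 3.49% of all genes were lower at that p. The share at that p was not computed for fits with a library left out, so the 15 to 24 cannot be weighed against it. Members not overlapping relative to the rest of the subunit numbered 8, 13 in TPM and 9 to 15 with each library left out, 15 being without control replicate 3 and 13 without control replicate 2 or cKO replicate 2. These counts against the rest of the subunit pool members relatively lower and relatively higher in cKO. With all libraries in CPM, 0.133% of all genes were relatively lower without overlap and 79.8% relatively higher. No such share was computed for the other settings. The cause of the differences between settings was not tested. The median log2 fold change of the members was -0.71 to -0.31 with each library left out. DESeq2 and the filters on low counts give no value of their own for overlap.

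The replicate block gave 11 genes and 1 member called and a median of -0.52. Deviations of same-numbered control and cKO libraries correlated at 0.0884, 0.0615 and 0.23, so the numbers were not taken to pair the samples, although 6 of 6 libraries correlated best with their own number. The lowest member, Rps6, had at least 314 counts in every library. In simulated data with equal dispersion in both groups, 14.9% of 1.5-fold and 80.6% of 2-fold changes were recovered. These shares need not hold for the members, whose spread was unequal between groups. Summing Rps6 with Rps6-ps4, an alternative chosen after seeing the data, gave 1 member called and a median of -0.60.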
